A study of Mus musculus with 4 samples.

Results

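The genes described here are 8 genes of the NF-kB response, Nfkbia, Tnfaip3, Nfkbiz, Zfp36, Nfkb1, Tnf, Icam1 and Sod2, out of 22631 genes counted. They were taken as a named list of targets and feedback inhibitors of NF-kB; no measured value enters that rule, though the list was drawn up with earlier results of these data known. Their transcripts were measured by single-cell RNA sequencing of CD45+ cells, the cells of blood origin, from MC38 tumours, a mouse colon carcinoma line grown in the flank. All mice carried the IL-12p40-IRES-EYFP reporter, which marks cells expressing the p40 chain of interleukin 12 with a yellow fluorescent protein. The 2 anti-CD40 tumours came from mice given 5 mg/kg of an agonist antibody against the receptor CD40 after 7 days of tumour growth, and the untreated tumour came from a mouse left without antibody. Tumours were taken 2 days after that time point, so that the conditions are known from 2 tumours and 1 tumour.

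NF-kB is a family of paired transcription factors held in the cytoplasm by inhibitory IkB proteins. Signals from CD40, Toll-like receptors and cytokine receptors activate a kinase complex that marks IkB for destruction, so that the factor enters the nucleus and drives genes of inflammation. Among its targets are its own inhibitors, which end the response, and in tumour macrophages, dendritic cells and neutrophils the pathway is known for driving cytokines, adhesion molecules and survival genes.

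The promoters of the members for which a sequence was at hand are shown first, because the shared feature that the list implies is a binding site for NF-kB. RefSeq promoter sequences on build GRCm38.p6 matched 6 of the 8 genes, and those of Nfkbiz and Nfkb1 were not used here. In the 250 bases before the annotated start, the kappa-B consensus, searched on both strands, was found in Nfkbia, Tnfaip3 and Sod2. Of 32851 promoters of the same length, 3.9% held it. The Nfkbia promoter lies at chr12:55492648-55492897 on the minus strand, the first Tnfaip3 promoter at chr10:19015411-19015660 on the minus strand and the Sod2 promoter at chr17:13007589-13007838 on the plus strand. Each is printed 5′ to 3′ on the strand of its gene, with capitals marking the consensus matches.
Nfkbia: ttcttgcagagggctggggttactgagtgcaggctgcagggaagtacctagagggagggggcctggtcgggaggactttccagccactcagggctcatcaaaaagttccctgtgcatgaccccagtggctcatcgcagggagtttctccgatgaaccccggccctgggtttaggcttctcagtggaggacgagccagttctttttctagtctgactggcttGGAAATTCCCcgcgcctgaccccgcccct
Tnfaip3: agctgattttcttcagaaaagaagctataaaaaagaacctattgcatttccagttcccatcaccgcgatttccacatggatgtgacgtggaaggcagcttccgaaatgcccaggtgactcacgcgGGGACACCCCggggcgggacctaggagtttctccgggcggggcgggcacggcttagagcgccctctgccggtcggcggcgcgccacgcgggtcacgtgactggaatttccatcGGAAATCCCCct
Sod2: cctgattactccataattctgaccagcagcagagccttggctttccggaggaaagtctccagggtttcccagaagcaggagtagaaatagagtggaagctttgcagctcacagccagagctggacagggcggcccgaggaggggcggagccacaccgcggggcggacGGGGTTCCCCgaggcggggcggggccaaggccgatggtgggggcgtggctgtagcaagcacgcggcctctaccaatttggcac
The Nfkbia match ran from 29 to 20 bases before the start, those of Tnfaip3 from 125 to 116 and from 12 to 3 bases, and that of Sod2 from 83 to 74 bases, where the letters match on both strands. No consensus match lay in these windows of Tnf, Icam1, Zfp36 or the second Tnfaip3 promoter.

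A second sequence links the list to its own member Zfp36, whose protein tristetraprolin binds AU-rich elements in 3′ untranslated regions and speeds the decay of the RNA. The nonamer TTATTTATT, the core of its preferred element, was counted on the gene strand of 1 annotated transcript a gene, overlaps included. It occurred 5 times in Tnf, once each in Nfkbia, Tnfaip3 and Zfp36, and not in Nfkbiz, Nfkb1, Icam1 or Sod2. Of 20715 transcripts, 7.06% held it at least once. In Tnf, 4 of the 5 matches lie within 30 bases at chr17:35199680-35199709 on the minus strand (GRCm38), printed with capitals over the matches.
Tnf: taTTATTTATTATTTATTTATTATTTATTt
A match in either search is a description of letters, and no binding was measured. On GRCm38 the genes themselves lie at chr12:55489410-55492647 (Nfkbia), chr10:19000910-19015657 (Tnfaip3), chr16:55811375-55838899 (Nfkbiz), chr7:28376784-28380253 (Zfp36), chr3:135584655-135691547 (Nfkb1) and chr17:35199381-35202007 (Tnf), all on the minus strand. Icam1 at chr9:21015985-21028817 and Sod2 at chr17:13006846-13040063 lie on the plus strand, and all 8 are annotated as protein-coding.

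The cells numbered 1226 in anti-CD40 tumour 1, 1815 in anti-CD40 tumour 2 and 1399 in the untreated tumour, in 4 libraries each, with medians of 979, 865 and 433 UMIs (unique molecular identifiers, 1 for each captured RNA molecule) per cell. Of 4440 cell barcodes, 0 were shared between libraries. Cell types and neutrophil subsets are those of the authors' annotation, whose class of monocytes, macrophages and dendritic cells is called the other myeloid cells. Summed neutrophil markers reached 102776, 65519 and 37285 CPM (UMIs of a gene or list per 1000000 UMIs) in neutrophils of anti-CD40 tumours 1 and 2 and of the untreated tumour, against 2192, 971.2 and 263.2 CPM in the other myeloid cells. T cell and NK cell markers were likewise highest in the classes of those names in every tumour. In the other myeloid cells the defining conventional dendritic cell markers were near 0 (60.4, 46.7 and 61.4 CPM in sum over 5 genes, with Clec9a at 0 in all tumours), while all 5 markers of mature dendritic cells were found in every tumour. Second-type cells, in which marker genes of another cell type reached 3 UMIs or more, made up 16.5%, 6.09% and 1.14% of the other myeloid cells, and 2.08%, 1.48% and 14.0% of T cells. Shares set by such a cutoff depend on depth, which was lowest in the untreated tumour, and they were not thinned.

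Across cell types, 5 of the 8 genes, Nfkbia, Tnfaip3, Nfkbiz, Zfp36 and Tnf, stood higher in neutrophils than in the other myeloid cells in every tumour. The share of all genes that did so was not determined, so that this count has no background to be set against. Levels are given as CPM of the summed cells of a type, with exact Poisson 95% intervals that cover counting error only. Because the annotation was made from expression, levels between classes are described and not tested.

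Among the inhibitors, Nfkbia encodes IkB alpha, which pulls NF-kB out of the nucleus. In neutrophils it stood at 5410 CPM (5241 to 5583) in anti-CD40 tumour 1, at 9114 CPM (8669 to 9576) in anti-CD40 tumour 2 and at 10525 CPM (9253 to 11923) in the untreated tumour. In the other myeloid cells it stood at 1507 (1410 to 1609), 2916 (2829 to 3005) and 1142 (1056 to 1233) CPM in the same order of tumours. Neutrophils were above the other myeloid cells 3.59-fold, 3.13-fold and 9.21-fold, and their range over tumours did not overlap that of the other myeloid cells, T cells or NK cells. T cells lay at 1871, 1832 and 2260 CPM and NK cells at 2817, 1096 and 686.3 CPM, so that the order of the 3 lower classes differed from tumour to tumour.

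Tnfaip3 encodes A20, an enzyme that edits ubiquitin chains and stops the signal upstream of the IkB kinase. It was lowest in the other myeloid cells, at 156.1, 315.5 and 77.2 CPM in anti-CD40 tumours 1 and 2 and the untreated tumour. Neutrophils held 510.7, 788 and 553.9 CPM, T cells 554.3, 813.1 and 378.8 CPM, and NK cells 697.7, 924.6 and 257.3 CPM. Over the 3 tumours the means were 618 ± 149 CPM in neutrophils, 582 ± 219 in T cells and 627 ± 339 in NK cells (SD, n = 3), which do not differ beyond their spread, and 183 ± 121 CPM in the other myeloid cells. That SD spans both conditions. In both treated tumours NK cells stood above T cells and T cells above neutrophils, and in the untreated tumour the order was reversed.

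Nfkbiz encodes IkB zeta, a nuclear IkB protein that helps induce secondary NF-kB targets. Its level was 948.4, 1906 and 1108 CPM in neutrophils, against 67.1, 231 and 124.6 CPM in the other myeloid cells, in anti-CD40 tumours 1 and 2 and the untreated tumour. Neutrophils were higher 14.1-fold (10.3 to 20), 8.25-fold (7.07 to 9.64) and 8.89-fold (5.45 to 14.1). T cells held 184.8, 121.5 and 143.7 CPM from 8 to 13 UMIs, and NK cells 413.5, 98.2 and 42.9 CPM from 16, 12 and 1 UMIs.

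Zfp36 had the clearest order of classes, with neutrophils above the other myeloid cells, T cells and NK cells, in that order, in every tumour. Neutrophils held 5320, 7978 and 5923 CPM in anti-CD40 tumours 1 and 2 and the untreated tumour, and the other myeloid cells 1789, 2752 and 1465 CPM. T cells held 877.6, 672.9 and 339.6 CPM, and NK cells 439.3, 310.9 and 128.7 CPM. The ranges over tumours of T cells and NK cells overlapped, while those of neutrophils and of the other myeloid cells overlapped with no neighbour. Exons of Zfp36 overlap Gm44710 on the other strand, and those of Icam1 overlap Gm47079. The use of strand in counting is not given in the sources used here, so that counts of both genes are uncertain to that extent.

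Nfkb1, for the p105 precursor of the p50 subunit, was the only one of the 8 with its lowest mean in neutrophils, at 167, 92.7 and 213.1 CPM in anti-CD40 tumours 1 and 2 and the untreated tumour. The other myeloid cells held 221.6, 155.3 and 257.9 CPM, T cells 230.9, 364.5 and 261.2 CPM, and NK cells 413.5, 253.6 and 300.2 CPM. Ranges of all neighbouring classes overlapped.

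Of the effector targets, Tnf, the gene of tumour necrosis factor, stood higher in neutrophils than in the other myeloid cells, T cells and NK cells in every tumour. Neutrophils had 262.4, 741.6 and 639.2 CPM in anti-CD40 tumours 1 and 2 and the untreated tumour, the other myeloid cells 36.9, 162.2 and 50.9 CPM. The untreated level in neutrophils rests on 15 UMIs (357.7 to 1054 CPM), 12 of them from 1 library of 15 cells. T cells had 2, 1 and 0 Tnf UMIs and NK cells 3, 2 and 0, where 0 allows up to 39.2 CPM in untreated T cells and 128.7 CPM in untreated NK cells.

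Sod2, for the mitochondrial superoxide dismutase, was a gene of both myeloid classes. It stood at 433.5, 521.5 and 170.4 CPM in neutrophils and at 572.4, 460.5 and 168.4 CPM in the other myeloid cells of anti-CD40 tumours 1 and 2 and the untreated tumour. T cells and NK cells lay between 26.1 and 90 CPM in every tumour, below both myeloid classes of the same tumour. Icam1, the adhesion molecule that binds leukocyte integrins, showed no order of classes: its means ran from 102 ± 47 CPM in NK cells to 148 ± 59.2 CPM in neutrophils (SD over both conditions, n = 3), less than their spread.

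**Figure D1:**
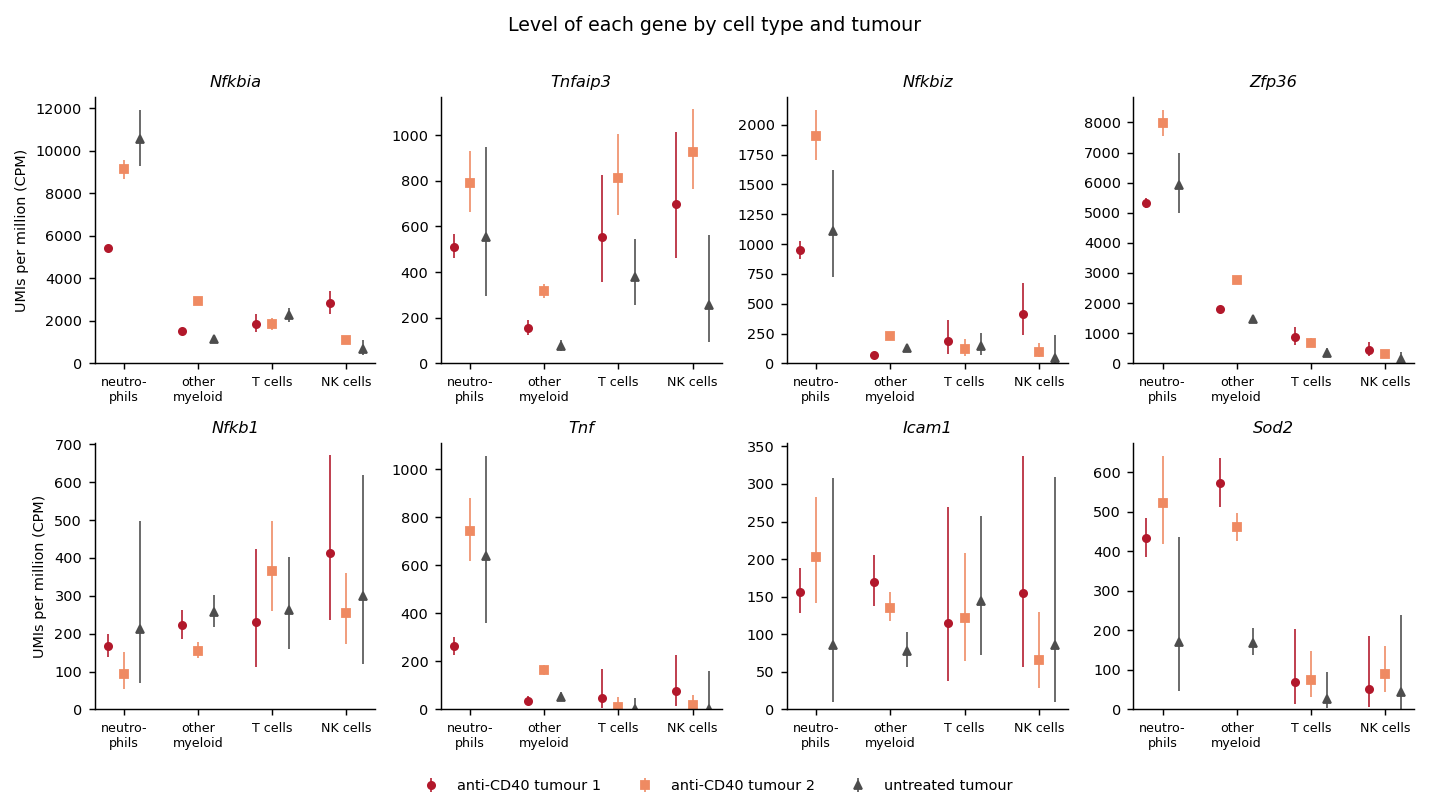
Level of each gene (CPM, linear axis from 0) in 4 cell types; each point is the summed cells of a type in a tumour, with its 95% Poisson interval. Nfkbia, Nfkbiz, Zfp36 and Tnf stand highest in neutrophils, Sod2 in both myeloid classes, and Icam1 and Nfkb1 show no clear order.

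The remaining classes were too small for levels of their own. B cells (2, 5 and 20 cells) held 0, 2 and 15 Nfkbia UMIs in anti-CD40 tumours 1 and 2 and the untreated tumour, and 0 Tnf and 0 Icam1 UMIs in every tumour. The 2 basophils, both from the untreated tumour, held 10 Nfkbia, 6 Zfp36 and 5 Tnfaip3 UMIs among 725. In the 2 and 1 plasmacytoid dendritic cells of anti-CD40 tumour 2 and the untreated tumour, the members added up to 2 Nfkb1 UMIs and 1 Zfp36 UMI.

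Within neutrophils, the genes did not share a single pattern over the annotated subsets N1a, N1b, N2, N3 and N5. Subset N4 held 1, 1 and 2 cells and is left out, and N1a held 0 and N1b 4 cells in the untreated tumour. Nfkbia was lowest in N1a, with 1664 CPM (1464 to 1883) in anti-CD40 tumour 1 and 2308 CPM (1677 to 3099) in anti-CD40 tumour 2, and was higher in N5, with 10838 (10095 to 11620) and 11090 (10147 to 12096) CPM. The N5 level was 6.51-fold (5.64 to 7.54) and 4.8-fold (3.53 to 6.7) that of N1a in these tumours. In anti-CD40 tumour 1 the order was N1a, N1b, N2, N3, N5, and in anti-CD40 tumour 2 it was the same but for N3 (12671 CPM), which lay above N5.

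Zfp36 did not follow Nfkbia. In anti-CD40 tumour 1 it was highest in N1b and N2, at 6409 and 6416 CPM, and the N5 level of 4019 CPM was 0.626-fold (0.55 to 0.711) that of N2. In anti-CD40 tumour 2 N2 and N3 were at 8882 and 8800 CPM and N5 at 7582 CPM, and in the untreated tumour N2 was at 9314 CPM from 69 UMIs and N5 at 2096 CPM from 13 UMIs. Zfp36 was thus lower in N5 than in N2 in every tumour, though the interval of anti-CD40 tumour 2 reached 1 (0.854-fold, 0.729 to 1). Nfkbia was higher in N5 than in N2, by 2.02-fold (1.84 to 2.22), 1.53-fold (1.31 to 1.79) and 1.33-fold (0.954 to 1.84).

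Tnf was lowest in N1a, at 59.7 and 104.9 CPM in anti-CD40 tumours 1 and 2 from 9 and 2 UMIs, and stood 6.28-fold and 9.94-fold higher in N3. Nfkbiz peaked in N3 in both of these tumours, at 1320 and 3110 CPM, against 656.2 and 839.3 CPM in N1a. Tnfaip3 was also lowest in N1a, at 192.2 and 262.3 CPM, but was highest in N3 (833.2 CPM) in anti-CD40 tumour 1 and in N2 (1152 CPM) in anti-CD40 tumour 2.

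Nfkb1 had the opposite slant, with 225.4 CPM in N1a and 54.9 CPM in N5 in anti-CD40 tumour 1, a ratio of 0.243 (0.0628 to 0.683) for N5 over N1a. In anti-CD40 tumour 2 the counts behind these levels were 2 and 1 UMIs. Sod2 was highest in N2 in both treated tumours, at 560 and 970 CPM. Icam1 reversed between the tumours: in anti-CD40 tumour 1 the ratio of N5 to N1a was 5.32 (2.12 to 15.1), and in anti-CD40 tumour 2 it was 0.0519 (0.00117 to 0.387), from 1 and 8 UMIs.

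**Figure D2:**
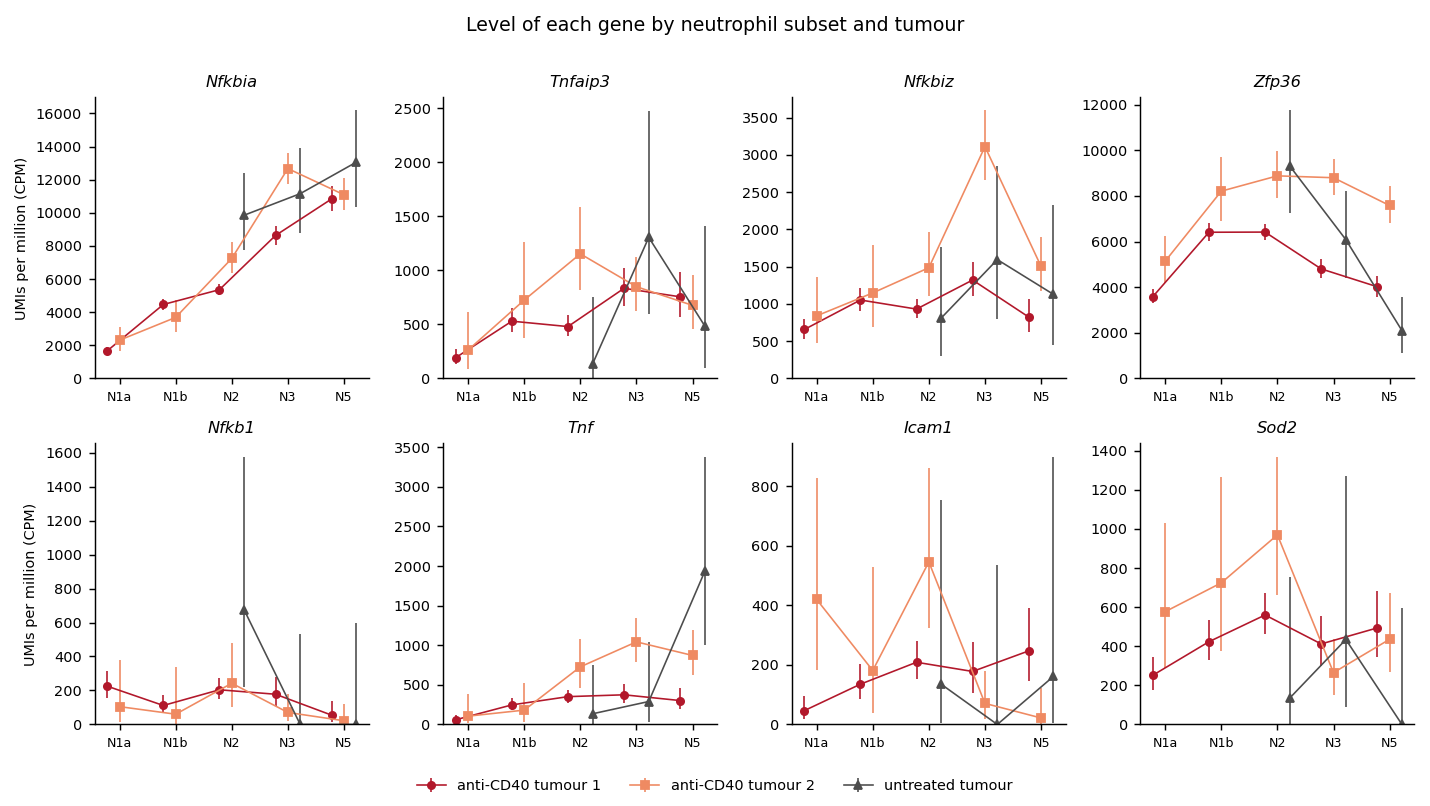
Level of each gene (CPM, linear axis from 0) in 5 neutrophil subsets; points are the summed cells of a subset in a tumour (subsets with fewer than 10 cells not drawn), bars 95% Poisson intervals, and lines join the subsets of a tumour. Nfkbia is lowest in N1a and high in N3 and N5, Zfp36 is lower in N5 than in N2, and the untreated points rest on 14 or 15 cells each.

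The treatment comparison asked whether these genes differed 2 days after the CD40 agonist, and it was made on sums per tumour with edgeR's quasi-likelihood test and Benjamini-Hochberg adjustment over all genes tested in a cell type. In the other myeloid cells, 5 of the 8 genes stood higher in both anti-CD40 tumours than in the untreated tumour, where 34.8% of all 7099 tested genes did, and Nfkb1 stood lower in both. The share of all genes lower in both was not determined in any cell type. None of the 8 passed an adjusted p of 0.05, while 0.409% of all tested genes did; 3 of the 8 had an unadjusted p below 0.05, where 9.2% of all genes did, and DESeq2 called 0. The fit has 1 residual degree of freedom, so that each p-value draws its error largely from all genes together. In the main fits of neutrophils, T cells, NK cells and the interaction below, the weight of that shared error (prior degrees of freedom) reached infinity. In those fits a gene's own spread between the treated tumours need not enter its error. Only the spread between the anti-CD40 tumours was measured, and it stands in for that of untreated tumours. Both treated tumours are set against the same untreated tumour.

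Sod2 came nearest to the threshold. Its libraries held 375.5 to 713.5 CPM (median 532.4) in anti-CD40 tumour 1, 414.5 to 498 CPM (median 469.9) in anti-CD40 tumour 2 and 102.9 to 227.3 CPM (median 154.6) in the untreated tumour. All 8 treated libraries lay above all 4 untreated ones, which held for 3.72% of all tested genes. The log2 fold change was 1.62 ± 0.42 (SE; edgeR adjusted p = 0.167), with 1.67 in anti-CD40 tumour 1 alone and 1.56 in anti-CD40 tumour 2 alone. The adjusted p ran from 0.00666 to 0.655 over the alternatives and was below 0.05 with plain library size (0.0487), without a filter on low counts (0.0485), in cells thinned to 300 UMIs (0.00666), with second-type cells left out (0.0364) and without pool 1 (0.0175). With plain library size, without the filter and in thinned cells the weight of the error shared by all genes reached infinity. The p-values of those settings therefore say little about the spread between the treated tumours.

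Icam1 likewise lay higher in every treated library, with 142.1 to 198.5 CPM (median 160.9) in anti-CD40 tumour 1, then 117.6 to 158.7 CPM (median 130.4) in anti-CD40 tumour 2, against 61.7 to 89.5 CPM (median 77.4) in the untreated tumour. Its log2 fold change was 0.99 ± 0.42 (SE; edgeR adjusted p = 0.481), and it was nearly the same in each treated tumour alone, at 1.04 and 0.92.

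The treated tumours differed from each other in the inhibitors and Tnf. Tnfaip3 held 71 to 261.3 CPM (median 141) in libraries of anti-CD40 tumour 1, 298.8 to 338.1 CPM (median 320.3) in those of anti-CD40 tumour 2 and 47.5 to 119.1 CPM (median 60.9) in those of the untreated tumour. All 4 libraries of anti-CD40 tumour 2 and 2 of anti-CD40 tumour 1 lay above the untreated ones, and the 2 others, both in pool 1, overlapped them. The log2 fold change was 1.68 ± 0.56 (SE; edgeR adjusted p = 0.393), with -0.21 within pool 1 and 1.97 within pool 2. Without pool 1 it was 2.43 with an edgeR adjusted p of 0.0268, without pool 2 it was 1.20 with 0.824, and without a filter on low counts the edgeR adjusted p was 0.0367 (0.0268 to 0.999 over all alternatives). Without the filter the weight of the error shared by all genes reached infinity. How many of all genes had as many treated libraries above the untreated ones was not determined.

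Nfkbia held 1356 to 1634 CPM (median 1556) in libraries of anti-CD40 tumour 1, 2847 to 3054 CPM (median 2922) in those of anti-CD40 tumour 2 and 908.1 to 1364 CPM (median 1097) in those of the untreated tumour. The treated tumours did not overlap each other, and 1 library of anti-CD40 tumour 1 fell within the untreated range. The log2 fold change was 1.01 ± 0.53 (SE; edgeR adjusted p = 0.618), with 0.31 in anti-CD40 tumour 1 alone and 1.46 in anti-CD40 tumour 2 alone. Zfp36 had the same arrangement, at 1529 to 1921, 2588 to 2961 and 1329 to 1618 CPM, and a log2 fold change of 0.68 ± 0.48 (SE; edgeR adjusted p = 0.738).

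For Nfkbiz and Tnf the treated tumours lay on either side of the untreated one or close to it. Nfkbiz held 38.4 to 81.2 CPM in libraries of anti-CD40 tumour 1, 212.1 to 255 CPM in those of anti-CD40 tumour 2 and 105.8 to 137.6 CPM in those of the untreated tumour, with no overlap among the 3 tumours. Its log2 fold change was -0.98 in anti-CD40 tumour 1 alone and 1.00 in anti-CD40 tumour 2 alone, and 0.37 ± 0.95 (SE; edgeR adjusted p = 0.922) in both. Tnf held 0 to 53.8, 106.7 to 232.8 and 27.5 to 75.8 CPM, so that anti-CD40 tumour 2 stood apart and the other two overlapped (1.11 ± 1.27, SE; edgeR adjusted p = 0.869).

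Nfkb1 was the one gene with a negative change, at 176.8 to 243.5 CPM in libraries of anti-CD40 tumour 1 and 132.6 to 188.5 CPM in those of anti-CD40 tumour 2, against 213.6 to 290.9 CPM in those of the untreated tumour. The log2 fold change was -0.46 ± 0.38 (SE; edgeR adjusted p = 0.781), and anti-CD40 tumour 1 overlapped the untreated range. Over the 8 genes the median log2 fold change was 1.00, beside 0.02 over all tested genes.

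**Figure D3:**
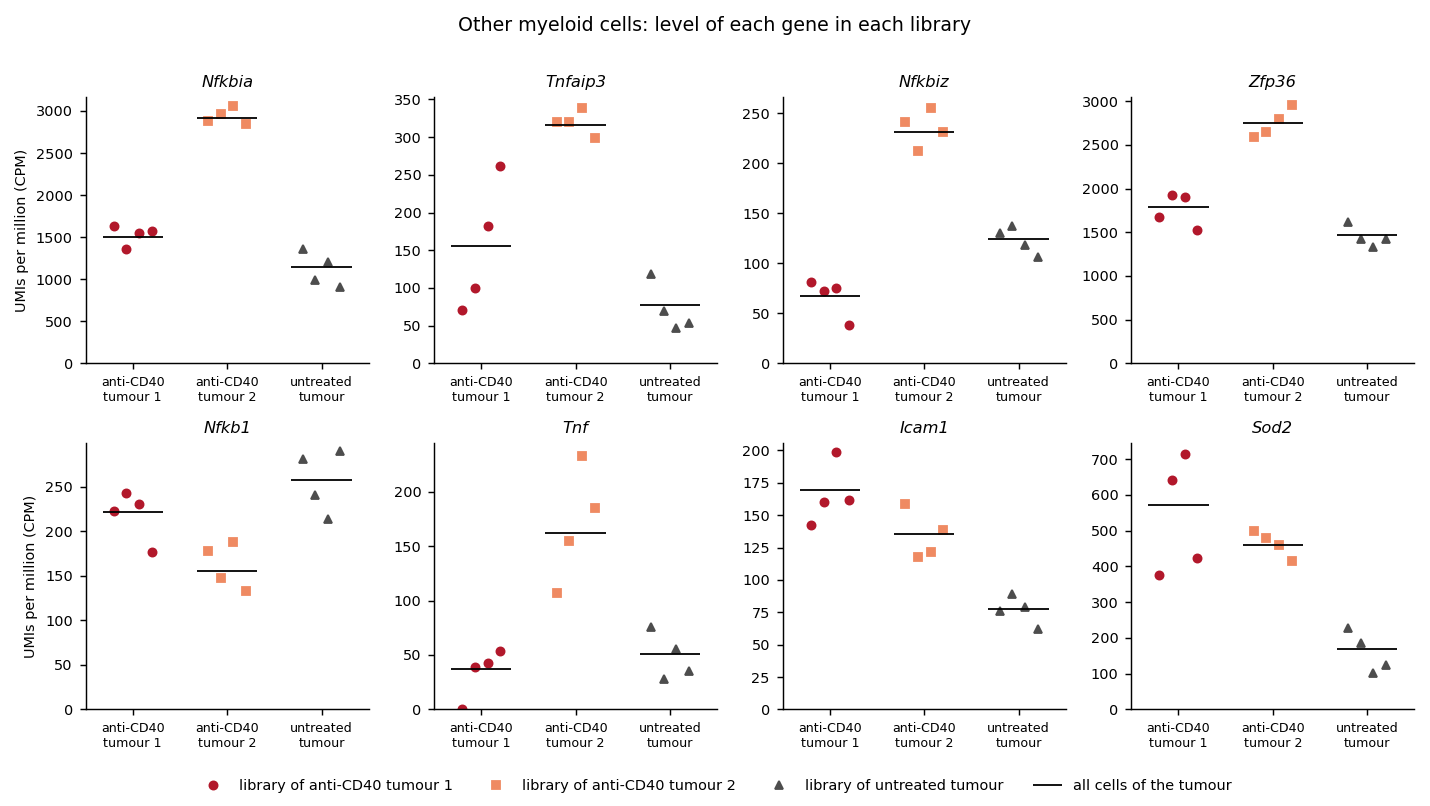
Level of each gene (CPM, linear axis from 0) in the other myeloid cells; each point is a library (4 per tumour) and the bar is the level of all cells of the tumour. Sod2 and Icam1 lie higher in all 8 treated libraries, and Nfkbia, Zfp36, Nfkbiz, Tnfaip3 and Tnf stand highest in anti-CD40 tumour 2.

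Anti-CD40 tumour 2 exceeded anti-CD40 tumour 1 in the other myeloid cells 1.93-fold (1.8 to 2.08) for Nfkbia, 3.44-fold (2.47 to 4.9) for Nfkbiz, 2.02-fold (1.61 to 2.55) for Tnfaip3, 4.39-fold (2.83 to 7.14) for Tnf and 1.54-fold (1.44 to 1.65) for Zfp36. The same genes were higher in anti-CD40 tumour 2 in neutrophils as well, 1.68-fold, 2.01-fold, 1.54-fold, 2.83-fold and 1.5-fold. These intervals cover counting error only, and the tumours were sequenced in different pools, so that tumour and pool cannot be told apart. The share of all genes higher in anti-CD40 tumour 2 in both classes was not determined. Neutrophil subsets also differed, with N1a at 18.3% and 7.44% and N5 at 13.7% and 30.7% of neutrophils in anti-CD40 tumours 1 and 2. Within N5 the ratios of the same genes, in the same order, were 1.02, 1.83, 0.895, 2.89 and 1.89. The summed level of 15 early-response and heat-shock genes, known to respond to tissue dissociation, was also highest in anti-CD40 tumour 2, with 10664, 15621 and 9943 CPM in the other myeloid cells and 29836, 42870 and 34558 CPM in neutrophils of anti-CD40 tumours 1 and 2 and the untreated tumour. Of these 15 genes, 0 were at 0 in the other myeloid cells and only Hspb1 was at 0 in neutrophils. Their part in the levels of the members was not tested.

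The makeup of the class also differed. Cells with a UMI of C1qa, C1qb or C1qc, complement genes of macrophages, made up 42.0% of the other myeloid cells in anti-CD40 tumour 1, 75.3% in anti-CD40 tumour 2 and 74.6% in the untreated tumour. This share depends on depth and was not thinned. The median depth of the class was 1058, 921.5 and 425 UMIs per cell, so that the sets with and without a C1q UMI are not matched between tumours. Summed macrophage markers were at 4014, 14331 and 18578 CPM, monocyte markers at 5214, 1282 and 2269 CPM, and mature dendritic cell markers at 2197, 1581 and 751 CPM. For Sod2 the difference was present in both sets of cells: 529.6, 421.5 and 159.7 CPM in cells with a C1q UMI, and 605.3, 591.2 and 195.8 CPM in cells without.

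For Icam1 the sets differed. Cells with a C1q UMI held 112.1, 108 and 78.7 CPM in anti-CD40 tumours 1 and 2 and the untreated tumour, with overlapping intervals, while cells without held 213.6, 226.9 and 72.5 CPM. Nfkbia in anti-CD40 tumour 1 was above the untreated tumour in cells with a C1q UMI (1249 against 884.2 CPM, 1.41-fold, 1.21 to 1.64) and not in cells without (1706 against 1951 CPM, 0.874-fold, 0.755 to 1.01). The difference between the sets was not tested. Cells with at least 3 UMIs of mature dendritic cell markers, 12.5%, 6.84% and 3.61% of the class, held 4644, 5612 and 2234 CPM of Nfkbia and 722.8, 620.2 and 99.3 CPM of Tnfaip3, the untreated Tnfaip3 level from 2 UMIs. Their shares likewise depend on depth and were not thinned. Without the cells carrying mature dendritic cell markers, the Tnfaip3 log2 fold change was 1.46 and that of Sod2 was 1.69.

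**Figure D4:**
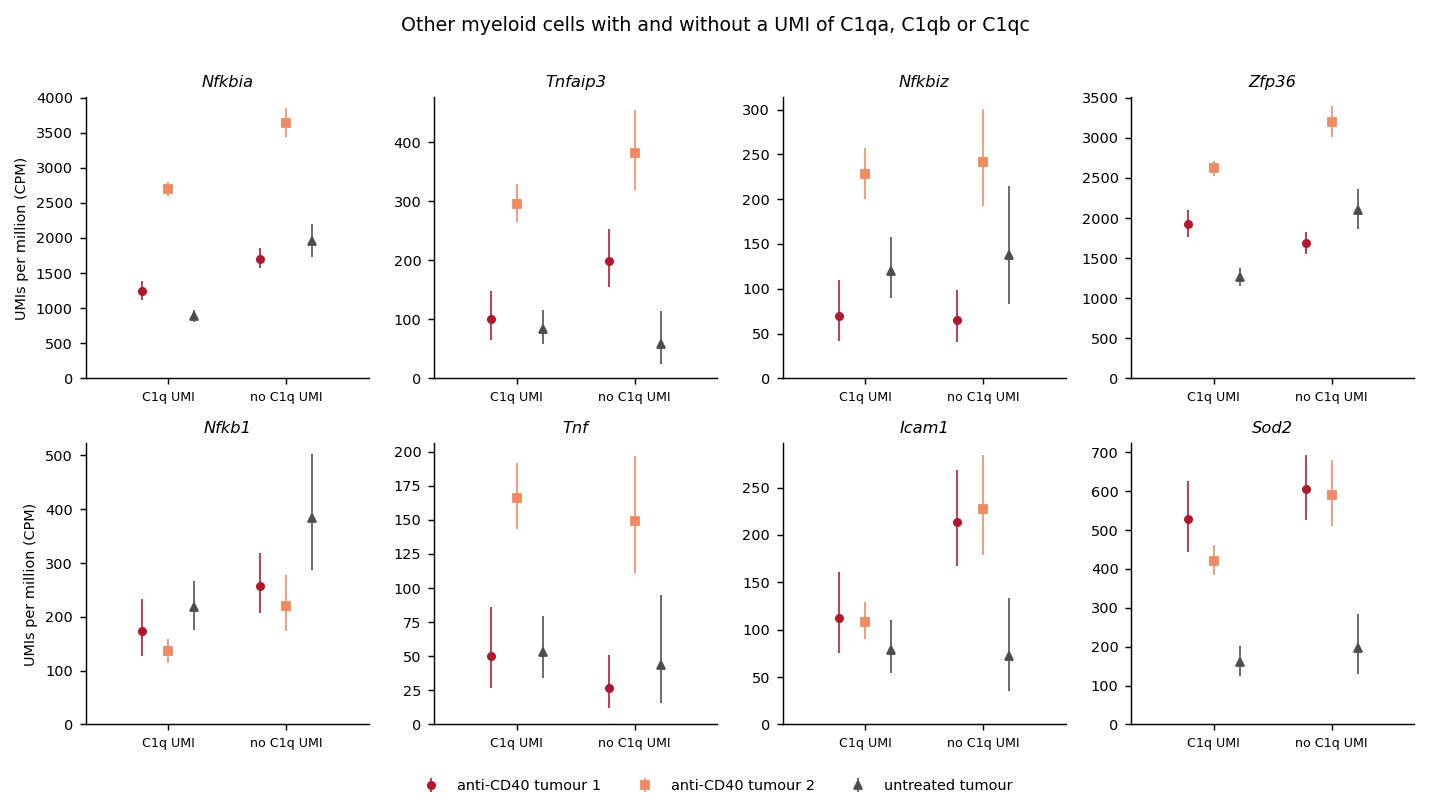
Level of each gene (CPM, linear axis from 0) in other myeloid cells with and without a UMI of C1qa, C1qb or C1qc, by tumour, with 95% Poisson intervals. Sod2 lies higher in both treated tumours in both sets, Icam1 in cells without a C1q UMI, and Nfkbia, Nfkbiz, Tnfaip3, Tnf and Zfp36 are highest in anti-CD40 tumour 2 in both sets.

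In neutrophils, 2 of the 8 genes, Sod2 and Icam1, stood higher in both anti-CD40 tumours than in the untreated tumour, where 32.3% of all 2713 tested genes did, and Nfkbia and Nfkb1 stood lower in both. For genes lower in both, the share of all genes was not determined. None of the 8 passed the threshold with edgeR, while 0.442% of all tested genes did; 1 of the 8 had an unadjusted p below 0.05, where 10.9% of all genes did, and DESeq2 called 0. Only 49 untreated neutrophils with 23468 UMIs stand behind the comparison, and the median log2 fold change over all genes was 0.29 with TMM scaling and -0.28 with plain library size, so that changes are also given relative to that median.

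Sod2 had the largest log2 fold change of the 8 in neutrophils, 2.06 ± 0.90 (SE; edgeR adjusted p = 0.439), or 1.77 relative to the median gene. Its libraries in anti-CD40 tumour 1 held 386.3 to 484.3 CPM, those in anti-CD40 tumour 2 held 417.9 to 961.3 CPM, against 0 to 320.9 CPM in the untreated tumour, which rests on 4 UMIs. All 8 treated libraries lay above the 4 untreated ones, as for 7.3% of all tested genes. Icam1 followed with 1.62 ± 1.05 (SE; edgeR adjusted p = 0.531), or 1.34 relative to the median gene, from 2 untreated UMIs.

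Nfkbia was lower in neutrophils of both treated tumours as CPM, while its log2 fold change with TMM scaling was 0.06 ± 0.71 (SE; edgeR adjusted p = 0.979), or -0.23 relative to the median gene, and -0.54 with plain library size. Its libraries held 5129 to 5862 CPM in anti-CD40 tumour 1, 7575 to 11451 CPM in anti-CD40 tumour 2 and 7891 to 11874 CPM in the untreated tumour, so that the first lay below the others and the other two overlapped. The summed level of 13 mitochondrial genes in neutrophils had the same order of tumours, at 2741, 5052 and 8607 CPM, and its part in the Nfkbia levels was not tested. The subsets of the 3 tumours differ in number: N1a, where Nfkbia was lowest, made up 18.3%, 7.44% and 0% of neutrophils. Within N2, N3 and N5 the ratio of anti-CD40 tumour 1 to the untreated tumour was 0.544 (0.429 to 0.699), 0.774 (0.613 to 0.989) and 0.83 (0.66 to 1.06), and that of anti-CD40 tumour 2 was 0.735 (0.563 to 0.969), 1.14 (0.897 to 1.46) and 0.849 (0.671 to 1.09). Without N1a and N1b the log2 fold change of Nfkbia was 0.21, and the median over all genes in that fit was also 0.21.

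The other 5 genes gave log2 fold changes in neutrophils of 0.96 ± 0.71 for Nfkbiz, 0.81 ± 0.74 for Tnfaip3, 0.76 ± 0.73 for Zfp36, 0.23 ± 0.72 for Tnf and -0.11 ± 0.87 for Nfkb1 (SE; edgeR adjusted p from 0.607 to 0.974). Relative to the median gene they stood, in the same order, at 0.67, 0.52, 0.47, -0.05 and -0.40. Tnf libraries held 213.9 to 359.4, 590 to 1180 and 0 to 1577 CPM in anti-CD40 tumours 1 and 2 and the untreated tumour, and all treated libraries fell within the untreated range.

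The difference in treatment effect between the myeloid classes was tested as an interaction with the tumour as a block. None of the 8 passed with edgeR, while 0.101% of 5921 tested genes did, and 1 of the 8, Nfkbiz, had an unadjusted p below 0.05, where 7.06% of all genes did (neutrophils minus other myeloid cells 1.43 ± 0.73, SE; edgeR adjusted p = 0.702). The median over all genes in this test was 1.40, so that relative to it Nfkbiz stood at 0.03, Nfkbia at -1.67, Tnfaip3 at -1.54 and Tnf at -1.40. Icam1 at -0.14, Sod2 at -0.34, Nfkb1 at -0.47 and Zfp36 at -0.67 lay nearer to the median. With plain library size the differences were 0.26 for Nfkbiz, -1.45 for Nfkbia, -1.32 for Tnfaip3 and -1.18 for Tnf.

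In T cells, 6 of the 8 genes passed the filter on low counts, and Tnf and Sod2 did not. None passed the threshold with edgeR, while 2.09% of 1865 tested genes did; 2 had an unadjusted p below 0.05, where 11.2% of all genes did, and DESeq2 called 0. Tnfaip3 and Zfp36 were higher in both treated tumours, where 37.1% of all tested genes were, and Nfkbia and Icam1 were lower in both, for which the share of all genes was not determined. Zfp36 libraries held 186.5 to 1363 CPM (median 873.9) in anti-CD40 tumour 1, 348.4 to 1052 CPM (median 568.5) in anti-CD40 tumour 2 and 118.5 to 496.3 CPM (median 361.1) in the untreated tumour, and 6 of 8 treated libraries lay above all untreated ones. The log2 fold change was 1.13 ± 0.38 (SE; edgeR adjusted p = 0.102). How many of all genes had 6 of 8 treated libraries above the untreated ones was not determined.

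Leaving out second-type T cells moved Zfp36 to 894.5, 675.2 and 253.2 CPM and a log2 fold change of 1.60 ± 0.39 (SE; edgeR adjusted p = 0.00479). Leaving out pool 1 gave 1.97 (edgeR adjusted p = 0.01), and leaving out pool 2 gave 0.61 (edgeR adjusted p = 0.828), within a range of 0.00479 to 0.998 over the alternatives. In each of these fits with cells or a pool left out, the weight of the error shared by all genes reached infinity. Their p-values therefore say little about the spread between the treated tumours. Summed macrophage markers stood at 46.2, 102.8 and 2429 CPM in T cells, with all 6 markers detected in the untreated tumour and 5 and 2 of them at 0 in anti-CD40 tumours 1 and 2. Tnfaip3 had 7 of 8 treated libraries above the untreated ones, for which the share of all genes was not determined. Its libraries in anti-CD40 tumour 1 held 5, 12, 11 and 20 T cells, with 3, 5, 3 and 13 Tnfaip3 UMIs. Its log2 fold change was 0.90 ± 0.37 (SE; edgeR adjusted p = 0.241). Nfkbia in T cells was -0.30 ± 0.24 (SE; edgeR adjusted p = 0.709).

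In NK cells, 5 of the 8 genes passed the filter, and Tnf, Icam1 and Sod2 did not. None passed the threshold with edgeR, while 1.89% of 794 tested genes did; 2 had an unadjusted p below 0.05, where 87 of all 794 genes did, and DESeq2 called 0. Nfkbia, Nfkbiz, Tnfaip3 and Zfp36 were higher in both treated tumours, where 39.9% of tested genes were. Tnfaip3 libraries held 600.4 to 766.8 CPM in anti-CD40 tumour 1, 500.4 to 1133 CPM in anti-CD40 tumour 2 and 103.5 to 430 CPM in the untreated tumour, and all 8 treated libraries lay above the 4 untreated ones, as for 3.27% of all tested genes. The untreated level rests on 6 UMIs. The log2 fold change was 1.67 ± 0.68 (SE; edgeR adjusted p = 0.279). Nfkbia libraries held 360.2 to 4491 CPM in anti-CD40 tumour 1, 470 to 1542 CPM in anti-CD40 tumour 2 and 429.8 to 860 CPM in the untreated tumour, so that 5 of 8 treated libraries lay above all untreated ones and 1 lay below them. Its log2 fold change was 1.45 ± 0.62 (SE; edgeR adjusted p = 0.332). How many of all genes had 5 of 8 treated libraries above the untreated ones was not determined.

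Of the other NK cell genes, Nfkbiz had the highest log2 fold change and the widest error, 2.34 ± 1.90 (SE; edgeR adjusted p = 0.66), from 1 untreated UMI. That of Zfp36 was 1.47 ± 0.76 (SE; edgeR adjusted p = 0.482), from 3 untreated UMIs, and that of Nfkb1 was 0.06 ± 0.64 (SE; edgeR adjusted p = 0.985). Summed macrophage markers stood at 0, 98.2 and 1587 CPM in NK cells of anti-CD40 tumours 1 and 2 and the untreated tumour, with 6, 3 and 2 of the 6 markers at 0, and second-type cells made up 0%, 2.34% and 9.76%. Without second-type cells the log2 fold change was 1.62 for Tnfaip3 and 1.81 for Nfkbia (edgeR adjusted p = 0.318 and 0.165), and Zfp36 was left with 0 untreated UMIs.

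**Figure D5:**
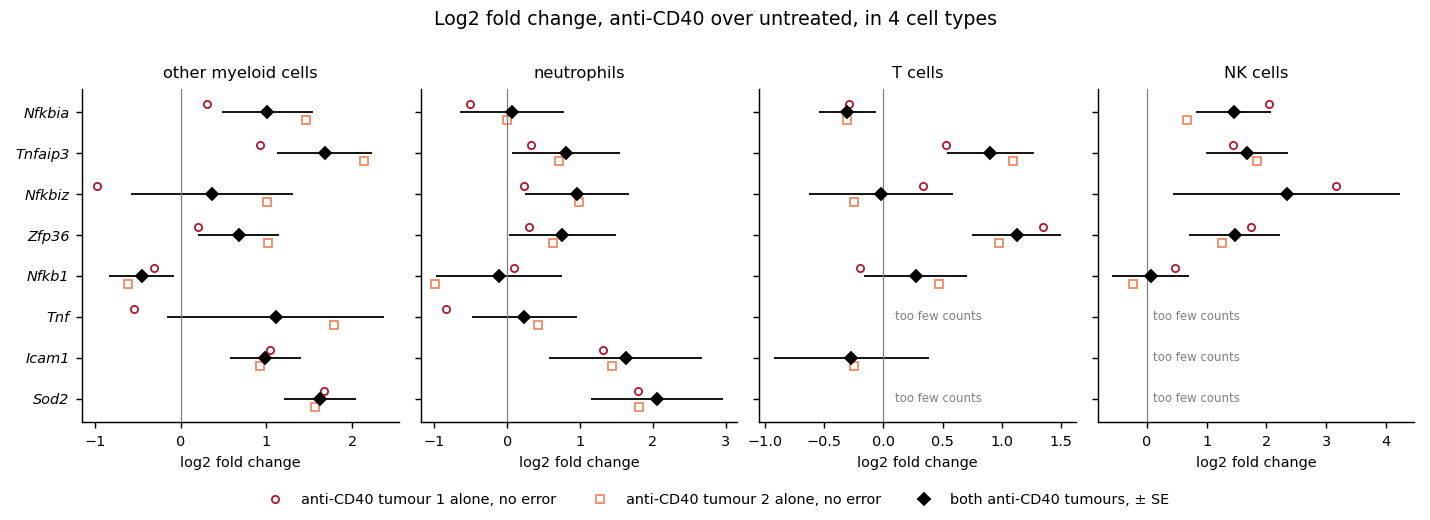
Log2 fold changes of anti-CD40 over untreated for each gene in 4 cell types; diamonds are the edgeR fit on both treated tumours with its SE, and open symbols are a treated tumour alone against the untreated one, without error. Sod2 and Icam1 lie near the same positive value in both treated tumours in both myeloid classes, and Nfkbiz and Tnf lie on either side of 0 in the other myeloid cells.

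The share of cells with at least 1 UMI depends on depth, which was lower in the untreated tumour (median 425 UMIs in the other myeloid cells, against 1058 and 921.5 in anti-CD40 tumours 1 and 2). As counted, all 8 genes were found in a larger share of the other myeloid cells in both treated tumours. With each cell thinned to 300 UMIs, and 29, 67 and 281 shallower cells left out, this held for 5 genes, Nfkbia, Tnfaip3, Icam1, Sod2 and Zfp36. The share of all genes found in more cells of both treated tumours was not determined, either as counted or thinned. Sod2 was found in 16% (12.6 to 19.9), 10.7% (9.04 to 12.5) and 3.63% (2.48 to 5.11) of thinned cells with exact Clopper-Pearson intervals, and in 36.4%, 25.1% and 7.22% as counted. Nfkbia was found in 32.2% (27.8 to 36.9), 46.7% (43.9 to 49.5) and 24.7% (21.8 to 27.7) of thinned cells, and in 61.2%, 72.4% and 32.6% as counted.

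Tnfaip3 was found in 5.73% (3.7 to 8.4), 6.97% (5.63 to 8.51) and 1.99% (1.16 to 3.16) of thinned cells, against 14.5%, 22.3% and 3.43% as counted. Nfkb1 turned from a larger to a smaller share, with 4.53%, 4.2% and 5.73% of thinned cells. No cell type of the tumour is known to lack these genes, so that no background share can be set. For comparison, Sod2 was found in thinned T cells at 2.13% and 2.36% in anti-CD40 tumours 1 and 2 and 0 of 124 cells in the untreated tumour, which allows up to 2.42%. The median depths of those T cells before thinning were 778, 651 and 475.5 UMIs. In thinned neutrophils Nfkbia was found in 62.4% (58.6 to 66.1), 80.5% (74.3 to 85.8) and 82.9% (67.9 to 92.8) of cells.

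Beyond the 8 genes, 93 other genes of the pathway were followed as subunits, kinases and adaptors, receptors, feedback inhibitors, other targets and relatives of Zfp36 in RNA decay. In the other myeloid cells 85 of them were tested, of which 0 rose and 1 fell with edgeR, where 0.239% of all tested genes fell. An unadjusted p below 0.05 was found for 14 of the 85, beside 9.2% of all tested genes, and DESeq2 called 2, Cxcl3 and Cxcl2, of the 14 it called among 5460 genes with an adjusted p. Cxcl2 lies outside the rule for named genes and was named after its value was seen. The gene that fell was Tnip3, for an A20-binding inhibitor of NF-kB, at 26.9, 28.9 and 117.6 CPM in anti-CD40 tumours 1 and 2 and the untreated tumour (log2 fold change -2.02 ± 0.39, SE; edgeR adjusted p = 0.0254, and 0.000659 to 0.999 over the alternatives). Its call ended with DESeq2 (adjusted p = 0.999), without any 1 of the 4 pools (0.0769 to 0.185), without cells carrying mature dendritic cell markers (0.318), in cells with a C1q UMI (0.0671) and without the shallowest 10% of cells (0.122). The highest values belonged to the neutrophil-attracting chemokine genes Cxcl1, at 18.5, 116.2 and 3.51 CPM (4.39 ± 2.67, SE; edgeR adjusted p = 0.779), and Cxcl3, at 73.9, 213.1 and 12.3 CPM (3.63 ± 1.07, SE; edgeR adjusted p = 0.447). The adjusted p of Cxcl3 ran from 4.23e-07 to 0.717 over the alternatives.

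By group in the other myeloid cells, the median log2 fold change was 0.51 over 28 other targets, 0.49 over 5 relatives of Zfp36, 0.36 over 16 feedback inhibitors, 0.31 over 11 receptors, 0.19 over 4 subunits and -0.07 over 21 kinases and adaptors, beside 0.02 over all genes. In neutrophils 59 of the 93 were tested and 0 passed with edgeR, 7 had an unadjusted p below 0.05, beside 10.9% of all genes, and DESeq2 called 0. The median was 0.86 over 12 feedback inhibitors, 0.78 over 23 other targets, 0.54 over 6 receptors, 0.46 over 4 subunits, 0.40 over 10 kinases and adaptors and -0.014 over 4 relatives of Zfp36, beside 0.29 over all genes. The highest and lowest in neutrophils were Ccl5 (91.2, 330.3 and 0 CPM; edgeR adjusted p = 0.177) and Slc2a6 (138.9, 92.7 and 0 CPM; edgeR adjusted p = 0.368) on one side, and Map3k14, the kinase NIK of the alternative pathway (25.2, 17.4 and 213.1 CPM; edgeR adjusted p = 0.367), and Hnrnpd (54.7, 23.2 and 255.7 CPM; edgeR adjusted p = 0.44) on the other.

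In T cells 31 of the 93 were tested, of which 0 rose and 1 fell with edgeR, where 1.07% of all tested genes fell. An unadjusted p below 0.05 was found for 7 of the 31, beside 11.2% of all tested genes, and DESeq2 called 0. Ccl4, a chemokine gene of activated T cells and macrophages, stood at 138.6, 130.8 and 692.3 CPM (-2.37 ± 0.41, SE; edgeR adjusted p = 2.37e-06), and at -2.71 without second-type cells (edgeR adjusted p = 1.12e-06). Both p-values come from fits in which the weight of the error shared by all genes reached infinity. The call ended with DESeq2 (adjusted p = 0.998), without pool 1 (0.362) and in thinned cells (0.394), within a range of 9.69e-07 to 0.998. The highest values in T cells were those of Nfkbid (1.88 ± 0.65) and Elavl1 (1.81 ± 0.74), and the next lowest was that of Il1b (-1.22 ± 0.50; SE; edgeR adjusted p from 0.125 to 0.25 for the 3 genes). In NK cells 11 were tested, of which 0 passed with edgeR, 0 had an unadjusted p below 0.05 and DESeq2 called 0, with Malt1 (-1.20 ± 0.85) and Ccl5 (-0.59 ± 0.55) lowest, and Ccl3 and Gadd45b, both at 0 UMIs in the untreated tumour, highest.

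Across 18 profiles, each a cell type or neutrophil subset of a tumour with at least 20 cells, the genes fell into unequal company. The profiles share tumours, libraries and depth, and Pearson's r of log2(CPM + 10) is given as a description. Nfkbia, Nfkbiz, Tnf and Zfp36 ran together, with r of 0.917 for Nfkbia and Nfkbiz, 0.898 for Nfkbia and Tnf, 0.925 for Tnf and Zfp36, and 0.816 for Nfkbia and Zfp36. These genes all stood highest in neutrophils, whose subsets are among the profiles, and r within neutrophils alone was not determined. Over the subsets Zfp36 did not follow Nfkbia, as described above. Sod2 joined Zfp36 (0.886) and Tnf (0.799) more than Nfkbia (0.633). Nfkb1 ran against Nfkbia (-0.675) and Tnf (-0.61), and Icam1 had no r above 0.521 with any member.

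Among 2987 genes with a mean of at least 50 CPM, those most like each member were Jdp2, Ccl3 and Rybp for Nfkbia (r from 0.917 to 0.93), Ddx5, Cxcr4 and Cd53 for Tnfaip3 (0.811 to 0.886), Lmnb1, Egr1 and Junb for Nfkbiz (0.932 to 0.941) and Dusp1, Cebpb and Ptgs2 for Zfp36 (0.965 to 0.976). For Nfkb1 they were Arhgap45, Capzb and Grk2 (0.879 to 0.881), for Tnf Gab2, Ccrl2 and Dusp1 (0.926 to 0.938), for Sod2 Nos2, Rnf149 and Cebpb (0.919 to 0.935), and for Icam1 Traf1, Daxx and Ezr (0.812 to 0.853). Egr1, Junb and Dusp1 are among the early-response genes whose summed level is given above.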

How the data were processed

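CD45+ cells of 3 MC38 tumours were measured by inDrops in 12 libraries and 4 pools. Pools 1 and 2 held the untreated tumour and anti-CD40 tumour 1, and pools 3 and 4 held anti-CD40 tumour 2. The deposited tables give whole-number UMI counts for each cell and gene, without any normalisation by the authors. The submitters' processing notes name bcl2fastq, STAR and build GRCm38. Tool versions, annotation, use of strand, cell filters and doublet removal were not given in the sources used here. Names per cell come from the authors' deposited table.

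For each tumour and cell type, UMIs were added up and divided by all UMIs of those cells (CPM). Cells and libraries from the same tumour are not biological replicates. Sums were tested with edgeR 4.0.16 in R 4.3.3 (TMM, filterByExpr, robust quasi-likelihood F test, threshold 0.05), with DESeq2 1.42.0 as an alternative; SE was derived from F. All deposited cells with an annotation were used, and doublets were not called. The procedure was run on simulated data in which all genes had the same spread in both conditions. Those data cannot show how the fits behave where spread differs between genes or conditions. The members and lists were chosen with earlier results of these data known. Named genes are all members, their 3 most alike genes, and pathway genes past the threshold or, with at least 20 UMIs, the 2 highest and 2 lowest. All intervals (95%) and floors (3 counts) cover counting error only. Tumours held 1391113, 1862139 and 707889 UMIs (anti-CD40 1 and 2, untreated).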

Additional observations from a re-analysis of the deposited data

How the results depend on the processing

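Of the log2 fold changes of the members, 125 of 144 alternative values in the other myeloid cells, 110 of 128 in neutrophils, 67 of 76 in T cells, 57 of 62 in NK cells and 21 of 24 in the interaction (8 of them without second-type cells, a setting chosen after seeing the data) kept their direction and, where tested, their side of the threshold. Outside the interaction, the counts include values from pool 1 or 2 alone and from either treated tumour alone. Those values have no p-value, so that they say nothing about the threshold. In the other myeloid cells the count of members past it was 0, but 1 (Sod2) with plain library size, in cells thinned to 300 UMIs and without second-type cells, 2 (Sod2 and Tnfaip3) without a filter on low counts, and 0 to 2 with a pool left out. In T cells it was 1 (Zfp36) without second-type cells and 0 to 1 with a pool left out. In NK cells it was 1 without second-type cells (Zfp36, with 0 untreated UMIs left) and 1 without the shallowest 10% of cells (Tnfaip3, edgeR adjusted p = 0.047). In all these T cell and NK cell settings the weight of the error shared by all genes reached infinity. The number of members in a larger share of other myeloid cells was 8 as counted and 5 in thinned cells. The cause was not tested. Of the 24 genes most alike to a member, 15 were shared with a pseudocount of 50 CPM.

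The direction reversed in neutrophils for Nfkbia with RLE scaling (-0.027), plain library size (-0.54) and thinning (-0.16), for Tnf with plain library size (-0.38), and for Nfkb1 without a filter (0.17) and with DESeq2 (0.036). In the interaction, plain library size reversed Nfkb1 (-0.26), Sod2 (-0.13) and Zfp36 (-0.45). With a pool left out, the direction also reversed in neutrophils for Nfkbia (-0.17 to 0.25), Nfkb1 (-0.61 to 1.20) and Tnf (-0.35 to 3.09), in T cells for Nfkb1 (-0.23 to 1.18, with -0.018 without pool 3) and in NK cells for Ccl5 (-1.08 to 0.90). Tnf in neutrophils was -0.048 without pool 3. No paired analysis was possible because the treatment fit has 1 value for each of 3 separate tumours, and anti-CD40 tumour 2 shares no pool with the untreated tumour. Values within pools 1 and 2, which both hold anti-CD40 tumour 1 and the untreated tumour, are single differences without a test.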
